A study of Mus musculus with 6 samples.

Results

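The genes described here make, sense and move sterols and fatty acids. The list named 36 mouse genes of cholesterol synthesis, its control, sterol transport and fatty acid synthesis. The genes share a role; they were listed with earlier results of these data known. Each was read by the probe set that carried its symbol alone and had the highest mean over the 6 arrays. Of the 36, 35 were measured, among 18193 genes in all, and Acat2 had no probe set under its symbol alone. Affymetrix arrays had been hybridised with RNA of mouse embryonic stem (ES) cells of strain 129SV, 3 wild-type and 3 MED23 knockout cultures, all given fresh complete medium for 24 hours before harvest. Med23 is a subunit of Mediator, the complex through which transcription factors reach RNA polymerase II. The labels call the replicates biological, without saying whether each genotype was 1 line or several, or which part of the gene was deleted. P-values therefore measure the spread between these cultures.

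Cholesterol is built from acetyl-CoA through mevalonate, the isoprenoids and squalene, and then through a series of sterol intermediates. The pathway is governed by SREBP transcription factors, which are held in the endoplasmic reticulum by Scap and Insig proteins while sterols are plentiful, and are cut free when they run low. SREBP2 (Srebf2) acts mostly on sterol genes and SREBP1 (Srebf1) mostly on fatty acid genes, while sterol excess turns on exporters such as Abca1 and Abcg1 through LXR receptors. Dividing ES cells need both products for membrane.

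SREBPs bind sterol regulatory elements and E-boxes, commonly beside boxes for NF-Y and Sp1. RefSeq's promoter table (GRCm38.p6, 250 bases before to 50 after each start) held 35 promoters of 27 of the 36 listed genes. Promoters of 4 genes are shown because they span the responses described further on: Insig1 and Tm7sf2 were higher in the knockout, Ebp was lower, and Hmgcs1 did not pass the test. Capitals mark the motifs searched, on either strand and with overlaps allowed. They are CACNCCAC, a short form of the sterol element, the E-box CACGTG, the NF-Y box CCAAT and the Sp1 box GGGCGG. The Insig1 promoter lies at chr5:28071162-28071461, plus strand, that of Hmgcs1 at chr13:119690101-119690400, plus strand, that of Tm7sf2 at chr19:6067801-6068100, minus strand, and that of Ebp at chrX:8193463-8193762, minus strand.
Insig1: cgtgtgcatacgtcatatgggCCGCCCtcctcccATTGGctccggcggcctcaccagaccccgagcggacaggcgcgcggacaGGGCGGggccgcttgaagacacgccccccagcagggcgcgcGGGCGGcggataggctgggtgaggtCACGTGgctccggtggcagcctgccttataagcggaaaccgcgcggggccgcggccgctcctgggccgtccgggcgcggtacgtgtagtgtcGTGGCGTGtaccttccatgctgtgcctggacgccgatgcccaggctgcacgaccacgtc
Hmgcs1: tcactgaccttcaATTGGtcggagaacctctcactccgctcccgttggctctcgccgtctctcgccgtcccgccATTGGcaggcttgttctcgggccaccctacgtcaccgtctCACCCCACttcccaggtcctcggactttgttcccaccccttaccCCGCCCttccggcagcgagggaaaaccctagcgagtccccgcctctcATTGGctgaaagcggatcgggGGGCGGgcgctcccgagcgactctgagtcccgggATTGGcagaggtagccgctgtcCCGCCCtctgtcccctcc
Tm7sf2: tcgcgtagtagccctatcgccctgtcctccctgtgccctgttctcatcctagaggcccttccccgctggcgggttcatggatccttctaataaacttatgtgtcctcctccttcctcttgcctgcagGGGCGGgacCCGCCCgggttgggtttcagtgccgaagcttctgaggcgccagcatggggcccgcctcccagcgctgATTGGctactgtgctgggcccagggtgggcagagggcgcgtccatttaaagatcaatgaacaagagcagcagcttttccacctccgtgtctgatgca
Ebp: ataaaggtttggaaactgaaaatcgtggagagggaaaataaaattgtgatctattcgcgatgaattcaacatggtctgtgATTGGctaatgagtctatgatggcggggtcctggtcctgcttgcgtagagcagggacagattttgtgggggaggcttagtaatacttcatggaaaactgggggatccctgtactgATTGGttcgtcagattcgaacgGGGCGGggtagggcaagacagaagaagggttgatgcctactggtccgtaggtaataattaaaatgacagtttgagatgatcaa

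CCAAT was found in 22 of the 35 promoters of listed genes (62.9%), against 38.7% of 8017 promoters of other genes with a mean log2 value above 7 and 37.4% of all 32851 promoters. GGGCGG was in 27 of the 35 (77.1%), against 66.2% of the promoters of those other genes. CACGTG was in 7 of the 35 (20%), against 11.1%, and of the 4 promoters shown only that of Insig1 holds it. CACNCCAC, a form chosen after seeing the data, was in 3 of the 35 (8.57%), those of Insig1, Hmgcs1 and Acat2, against 6.35%. The same form preceded by AT was in 0 of the 35 and in 0.112% of the promoters of those other genes. CCAAT stands in the promoters of both kinds of member, those that passed the test and those that did not. Of the former it is in Insig1, Tm7sf2, Hsd17b7 and Ebp, but not in Abca1 or Fads2. Of the latter it is in Hmgcs1, Mvk, Cyp51, Msmo1 and Srebf2 among others, but not in Acaca, Elovl6 or Scap.

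The arrays themselves were checked before the members. Med23, the targeted gene, had means of 8.88 ± 0.055 in wild-type and 7.37 ± 0.038 (log2, SD, n = 3 each) in knockout cultures, a 2.86-fold fall. Of 12 pluripotency markers, 0 had both group means under 4.62, the midpoint of the whole table; 2 rose, Fbxo15 (2.0-fold) and Klf2 (1.53-fold), and 1 fell. Of 21 endoderm markers 17 fell and 0 rose, led by Col4a2 (-3.71) and Col4a1 (-3.41), and their summed level per array (log2 of the sum of unlogged values) was 13.70 to 13.95 in wild-type and 12.73 to 12.74 in knockout arrays; of the 21, 2 lay below 4.62 in both groups. Of 9 trophoblast markers 3 fell and 0 rose, and the 3 were all simple keratin genes, Krt8 (-2.52), Krt7 (-1.91) and Krt18 (-1.67). The lineage factors Eomes (0.41), Tfap2c (0.16), Elf5 (0.05), Hand1 (-0.06), Gata3 (-0.10) and Cdx2 (-0.27) did not pass. The summed level of the 9, which the bright keratins weigh most in, was 11.54 to 11.70 in wild-type and 10.23 to 10.33 in knockout arrays. Of 10 fibroblast markers 2 rose, 1 fell and 7 lay below 4.62 in both groups, with Thy1 at -0.73 and Fn1 at 0.39. The shares called were 25% of the pluripotency, 81.0% of the endoderm, 33.3% of the trophoblast and 30% of the fibroblast markers. Beside them, the limma test described below called 18.9% of all genes and 27.0% of genes with a mean above 7. The differences between these shares were not tested. All 5 measured Y-linked genes were higher in the knockout, led by Eif2s3y (means of 3.04 in wild-type and 9.87 in knockout) and Uba1y (2.82 and 9.02). The wild-type means of all 5 lay below 4.62, and 1 of the 5 lay below it in both groups. Med23 loss and other differences between the lines thus cannot be told apart. Wild-type replicate 1 stood apart, where 752 probe sets were 2-fold or further under the average of the remaining wild-type arrays.

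Across the 35 genes there was no common shift. The median log2 fold change, knockout minus wild-type, was 0.02, as over all genes (0.02), and 18 of the 35 values were above 0. At an adjusted p under 0.05 (limma, Benjamini-Hochberg over all probe sets), 5 genes rose and 5 fell. Stard4, Fads2, Tm7sf2, Insig1 and Fads1 rose, and Ebp, Fdft1, Abca1, Npc1 and Hsd17b7 fell. These 10 are 28.6% of the 35. The same test called 18.9% of all genes, and 27.0% of the 7626 genes with a mean above 7, a level that all 35 members passed (lowest 7.01). By direction, 13.5% of those brighter genes were higher and 13.5% were lower, beside 5 of 35 each way here, so the share called was close to that of other genes of like level. Without wild-type replicate 1, 6 members rose and 5 fell. Leaving out any 1 knockout array left 3 rises (Stard4, Fads2 and Tm7sf2) and 3 falls (Ebp, Fdft1 and Npc1).

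**Figure D1:**
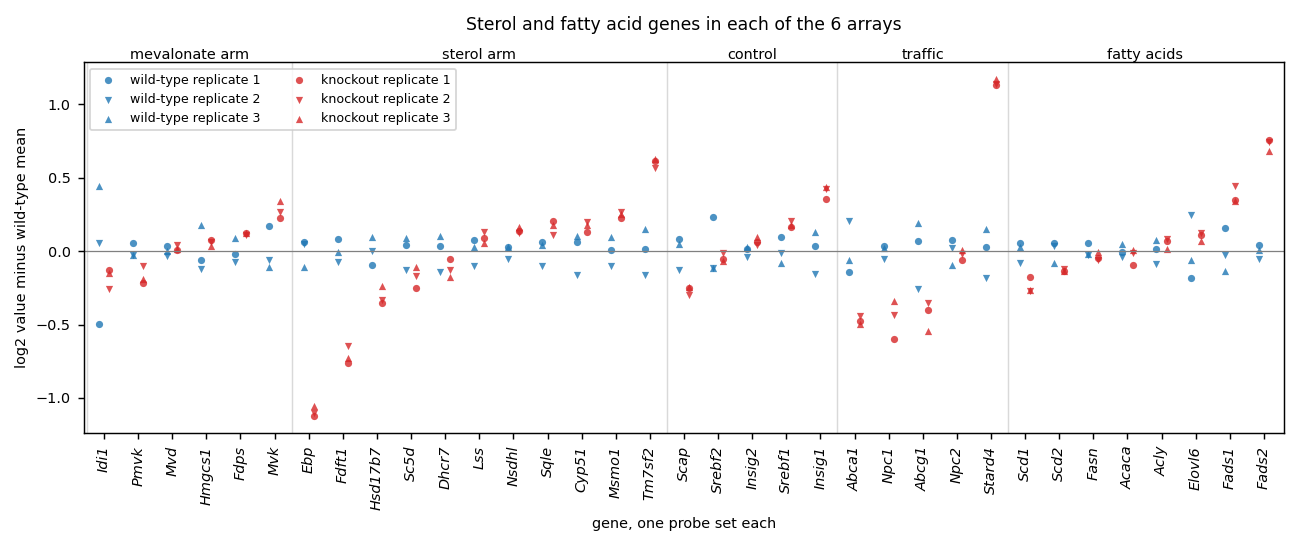
Each point is 1 array: the log2 value of a gene minus its wild-type mean, for 35 genes grouped by role, with wild-type arrays in blue and knockout arrays in red. Knockout points lie close together for most genes, well above 0 for Stard4, Fads2 and Tm7sf2 and well below it for Ebp and Fdft1, while the wild-type points of Idi1 are spread widely.

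In the mevalonate arm, which leads from acetyl-CoA to farnesyl pyrophosphate, 0 of 6 measured genes passed the limma test. The test called 27.0% of genes with a mean above 7, and 6 genes are too few to tell the arm from that share. Hmgcs1, the synthase that makes HMG-CoA, was 11.22, 11.16 and 11.46 (log2) in wild-type replicates 1 to 3 and 11.36, 11.34 and 11.31 in knockout replicates 1 to 3. The groups overlapped, and the log2 fold change was 0.06, with a 95% interval of -0.15 to 0.27. Mvk, the kinase that phosphorylates mevalonate, was 7.91, 7.68 and 7.63 in wild-type and 7.97, 8.002 and 8.08 in knockout arrays. All 3 knockout values were above the wild-type ones, but the difference of 0.28 did not pass (limma adjusted p = 0.0891); without wild-type replicate 1 it was 0.36 and did (adjusted p = 0.018). A second Mvk probe set differed by 0.02.

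The next kinase of the arm, Pmvk, differed by -0.17 (95% interval -0.33 to -0.02; limma adjusted p = 0.148). The decarboxylase gene Mvd was the most even of the arm, at 8.70 ± 0.037 in wild-type and 8.72 ± 0.017 in knockout cultures (SD, n = 3 each). Fdps, which joins isoprene units into farnesyl pyrophosphate, differed by 0.12 (-0.04 to 0.28). The isomerase gene Idi1 had the widest wild-type spread of the 35 genes: 9.08, 9.63 and 10.02 in wild-type against 9.45, 9.32 and 9.43 in knockout arrays. Its interval, -0.69 to 0.33, leaves both a fall and a rise possible.

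The sterol arm, from squalene to cholesterol, held 4 of the 10 changed genes among its 11 members, 1 higher and 3 lower. That was 36.4% of the arm, beside 27.0% of genes with a mean above 7, and the difference was not tested. Ebp, the sterol isomerase gene, fell most. It was 10.23, 10.22 and 10.06 in wild-type replicates 1 to 3 and 9.05, 9.07 and 9.12 in knockout replicates 1 to 3. The lowest wild-type value stood far above the highest knockout value, and the difference was -1.09 (standard error 0.071, limma adjusted p = 0.000147), or 2.13-fold lower. Fdft1, squalene synthase and the first enzyme committed to sterols, was 10.64, 10.48 and 10.55 in wild-type and 9.80, 9.91 and 9.83 in knockout arrays. Every knockout value was below every wild-type value (log2 fold change -0.71, standard error 0.070, limma adjusted p = 0.000844). Its 2 brighter probe sets fell alike, by -0.71 and -0.73, and 2 dim ones did not pass, so that the mean over all 4 gave -0.32.

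Hsd17b7, a ketoreductase gene of sterol demethylation, was 7.33, 7.43 and 7.53 in wild-type and 7.07, 7.09 and 7.19 in knockout arrays. It fell by 0.31 (limma adjusted p = 0.0367), and the call ended without wild-type replicate 2 or 3 or any 1 knockout array (adjusted p up to 0.126). The other Hsd17b7 probe sets differed by -0.28, -0.23 and -0.01, and none passed (limma adjusted p = 0.0788, 0.138 and 0.952). As the mean over its probe sets the Hsd17b7 difference was -0.21 and passed (limma adjusted p = 0.0244). Tm7sf2, a sterol reductase gene, went the other way. It was 7.31, 7.13 and 7.45 in wild-type and 7.91, 7.86 and 7.93 in knockout arrays, with no overlap (log2 fold change 0.60, standard error 0.090, limma adjusted p = 0.00511).

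The other 7 genes of the arm did not pass, and 5 of them lay between 0.09 and 0.25. Msmo1, a sterol methyl oxidase gene, was 10.17, 10.06 and 10.26 in wild-type and 10.39, 10.43 and 10.42 in knockout arrays, a difference of 0.25 (limma adjusted p = 0.0626). That difference passed in 5 of 14 fits, among them the fit without wild-type replicate 3. Sqle, the epoxidase that acts on squalene, differed by 0.17 (standard error 0.072), the demethylase gene Cyp51 by 0.17 (-0.03 to 0.37) and the X-linked dehydrogenase gene Nsdhl by 0.14. Lss, the cyclase that closes the sterol rings, differed by 0.09 in its brightest probe set (limma adjusted p = 0.485), but by 0.86 in a dimmer one (5.27 ± 0.28 against 6.13 ± 0.16, SD, n = 3 each; limma adjusted p = 0.0103). As the mean over its 3 probe sets the Lss difference was 0.37 and passed (adjusted p = 0.0204). The late enzymes' genes Sc5d and Dhcr7 had negative differences, -0.18 (-0.37 to 0.02) and -0.12 (-0.31 to 0.08), with overlapping groups. The dimmer Sc5d probe sets had positive ones, 0.16 (-0.05 to 0.38) and 0.22 (-0.08 to 0.51), and did not pass either.

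**Figure D2:**
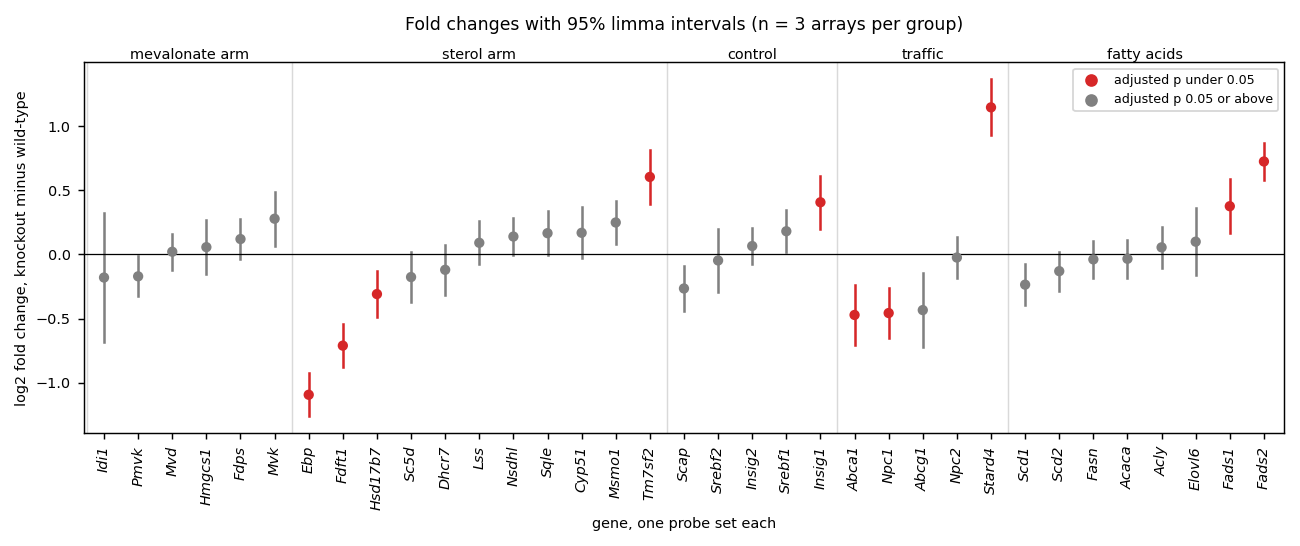
Points give the log2 fold change of each of the 35 genes, knockout minus wild-type, and bars the 95% limma interval (3 arrays per group), red where the adjusted p was under 0.05. Ebp (-1.09) and Stard4 (1.15) have the largest differences. None of the 6 genes of the mevalonate arm is red, where the test called 27.0% of genes with a mean above 7.

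Of the 5 genes that control the pathway, only Insig1 passed the test at the main setting (20%, beside 27.0% of genes with a mean above 7). Insig1 encodes a protein that retains the Scap-SREBP complex in the endoplasmic reticulum and is itself an SREBP target. It was 7.90, 7.71 and 7.99 in wild-type and 8.22, 8.29 and 8.30 in knockout arrays, so that the groups did not overlap. The log2 fold change was 0.41 (standard error 0.087, limma adjusted p = 0.0221). The call ended when any 1 knockout array was left out (adjusted p up to 0.0853), with differences of 0.33 to 0.47 over the fits that left out 1 array. Its relative Insig2 was 8.04, 7.99 and 8.06 against 8.09, 8.07 and 8.13, a difference of 0.07 (95% interval -0.07 to 0.21). The other Insig2 probe sets differed by 0.25 (0.06 to 0.44, limma adjusted p = 0.0963, groups not overlapping) and -0.10 (-0.32 to 0.13).

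Scap, the escort of SREBP, was 8.81, 8.61 and 8.78 in wild-type and 8.48, 8.43 and 8.49 in knockout arrays. All knockout values were lower, and the difference of -0.27 missed the threshold (limma adjusted p = 0.0595); it passed without wild-type replicate 2 (adjusted p = 0.0353). Srebf1 was 9.06, 8.95 and 8.88 in wild-type and 9.12, 9.17 and 9.13 in knockout arrays, a difference of 0.18 that did not pass (limma adjusted p = 0.147). Srebf2 was 8.48, 8.14 and 8.13 against 8.20, 8.23 and 8.18. Wild-type replicate 1 was the highest of all 6 for Srebf2, and the sign of its difference depended on that array: -0.05 with it and 0.07 without it. The other Srebf2 probe set differed by 0.28 (limma adjusted p = 0.112).

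Of the 5 genes of sterol traffic 1 rose and 2 fell, with a median of -0.43. That was 60% of only 5 genes, beside 27.0% of genes with a mean above 7, and the difference was not tested. Stard4 encodes a cytosolic carrier that moves cholesterol between membranes and is an SREBP target. It was 6.62, 6.40 and 6.74 in wild-type replicates 1 to 3 and 7.71, 7.72 and 7.75 in knockout replicates 1 to 3. Each knockout value was nearly a log2 unit or more above each wild-type one, and the difference was 1.15 (standard error 0.093, limma adjusted p = 0.000367), or 2.21-fold. All 3 Stard4 probe sets rose, by 1.15, 0.81 and 1.24.

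Npc1, which carries cholesterol out of late endosomes and lysosomes, was 7.67, 7.58 and 7.65 in wild-type and 7.04, 7.20 and 7.30 in knockout arrays. It fell without overlap, by 0.46 (standard error 0.082, limma adjusted p = 0.011). Its lysosomal partner Npc2 did not pass, at 11.82 ± 0.085 and 11.79 ± 0.032 (SD, n = 3 each; log2 fold change -0.02, 95% interval -0.19 to 0.14). A dim Npc2 probe set (3.95 ± 0.19 against 4.37 ± 0.086) passed with 0.42.

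The exporter genes Abca1 and Abcg1 are LXR targets. Abca1, the lipid exporter that loads apolipoprotein A1, was 8.40, 8.75 and 8.48 in wild-type and 8.07, 8.10 and 8.05 in knockout arrays. The groups did not overlap and the log2 fold change was -0.47 (standard error 0.098, limma adjusted p = 0.0201); the call ended without any 1 knockout array (adjusted p up to 0.076), and the mean over its 3 probe sets gave -0.11. Abcg1, which exports sterol to high-density lipoprotein, was 7.29, 6.97 and 7.41 against 6.82, 6.87 and 6.68, a difference of -0.43 that missed the threshold (limma adjusted p = 0.0606). Without wild-type replicate 2, the lowest of its group, the Abcg1 difference was -0.56 and passed (adjusted p = 0.0167). The endoderm markers given above moved the same way as Npc1, Abca1 and Abcg1, and their part in these results was not tested.

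Of the 8 genes of fatty acid synthesis 2 rose and 0 fell, a share of 25%, beside 27.0% of genes with a mean above 7. The 2 were the desaturase genes of polyunsaturated chains, and the core synthesis genes did not pass. Fads2, the delta-6 desaturase gene, was 7.60, 7.501 and 7.56 in wild-type and 8.31, 8.29 and 8.23 in knockout arrays. This separation was many times the spread within either group (log2 fold change 0.72, standard error 0.062, limma adjusted p = 0.000468), or 1.65-fold, and all 3 Fads2 probe sets rose. Its chromosome 19 neighbour Fads1, the delta-5 desaturase gene, was 8.30, 8.11 and 8.004 in wild-type and 8.48, 8.58 and 8.48 in knockout arrays. It rose by 0.38 (limma adjusted p = 0.0323) in both of its probe sets, by 0.38 and 0.34, although the call ended without wild-type replicate 2 or 3 or any 1 knockout array (adjusted p up to 0.117).

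Acly, which makes cytosolic acetyl-CoA from citrate, differed by 0.06 (95% interval -0.11 to 0.22). Acaca, the carboxylase that makes malonyl-CoA, was 8.20, 8.17 and 8.25 in wild-type and 8.11, 8.19 and 8.21 in knockout arrays (-0.03, interval -0.18 to 0.12). Fasn, the synthase itself, was 10.21, 10.13 and 10.14 against 10.11, 10.10 and 10.15 (-0.04, interval -0.18 to 0.10). These intervals are those of 1 probe set per gene. Of the other Acly probe sets, 2 bright ones differed by 0.10 (-0.05 to 0.25) and 0.11 (-0.07 to 0.30), and a dim Acaca probe set by -0.21 (-0.42 to -0.01); none passed. The elongase gene Elovl6 overlapped between groups (0.10, interval -0.16 to 0.36). Scd1, the delta-9 desaturase gene, was 8.75, 8.61 and 8.72 against 8.52, 8.43 and 8.44, a difference of -0.24 that did not pass (limma adjusted p = 0.0665), and its second probe set differed by 0.10. Its paralog Scd2 had values of 11.16, 11.14 and 11.02 in wild-type and 10.97, 10.98 and 10.97 in knockout arrays (-0.13, limma adjusted p = 0.259). Because these paralogs are alike in sequence, probe sets of one may take up signal of the other.

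**Figure D3:**
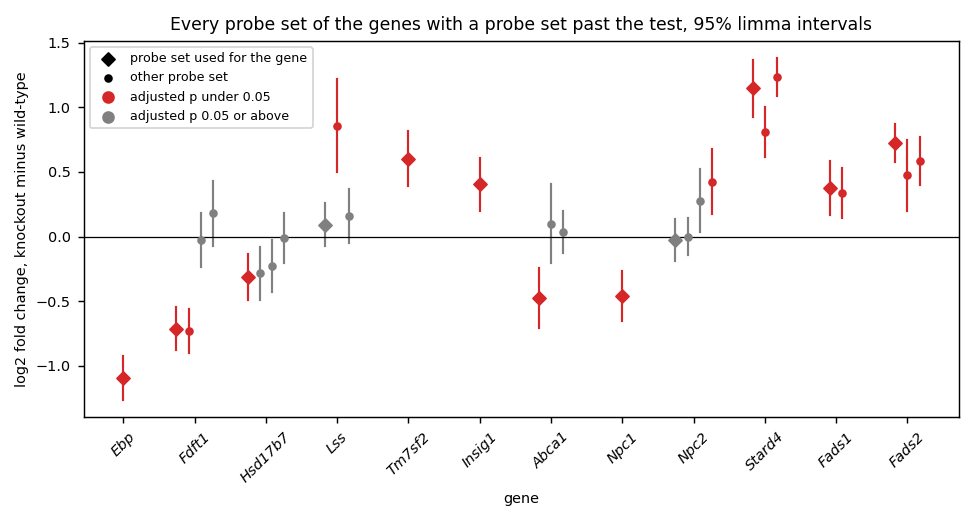
Every probe set of the 12 genes with at least 1 probe set past the test, as log2 fold change with its 95% limma interval; diamonds mark the probe set used for the gene. Probe sets of Stard4, Fads1 and Fads2 moved together, while those of Abca1, Fdft1 and Lss did not all do so.

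The 35 genes had 82 probe sets of their symbol alone, 12 higher and 6 lower past the test, and in 0 genes did probe sets pass in opposite directions. A gene with several probe sets counts several times here, as Stard4 and Fads2 did with 3 rises each. Per gene, 5 rose and 5 fell. The share called over all probe sets was not computed. Groups did not overlap for 13 members that were higher in the knockout (32.8% of the brighter genes were) and 10 that were lower (26.3% of the brighter genes). The 13 higher ones include 8 that did not pass the test: Mvk, Fdps, Sqle, Cyp51, Msmo1, Nsdhl, Insig2 and Srebf1. Their differences were small, 0.07 to 0.28. The 5 lower ones that did not pass were Scap, Abcg1, Scd1, Scd2 and Pmvk.

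The wild-type arrays were not evenly placed over the members. Wild-type replicate 2 held the lowest wild-type value for 24 of the 35 genes (68.6%), among them 9 of 11 in the sterol arm, against 36.5% of the brighter genes. It held the highest for 2 of 35 (5.71%), against 15.03%. The highest wild-type value was in replicate 1 for 18 of 35 (51.4%), against 59.8% of the brighter genes, and in replicate 3 for 15 of 35 (42.9%), against 25.2%. The median member of the sterol arm was -0.15 in replicate 2 relative to the mean of its fellow wild-type arrays, against -0.02 for the brighter genes. Hmgcs1, Sqle, Lss, Cyp51, Tm7sf2, Msmo1, Dhcr7, Insig1 and Stard4 all had their lowest wild-type value in replicate 2. This is a description over genes of 3 arrays and carries no test. Leaving out the lowest wild-type value must lower a difference. Without replicate 2 the differences of these genes were therefore lower, at 0.33 for Insig1, 0.52 for Tm7sf2 and 1.05 for Stard4.

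**Figure D4:**
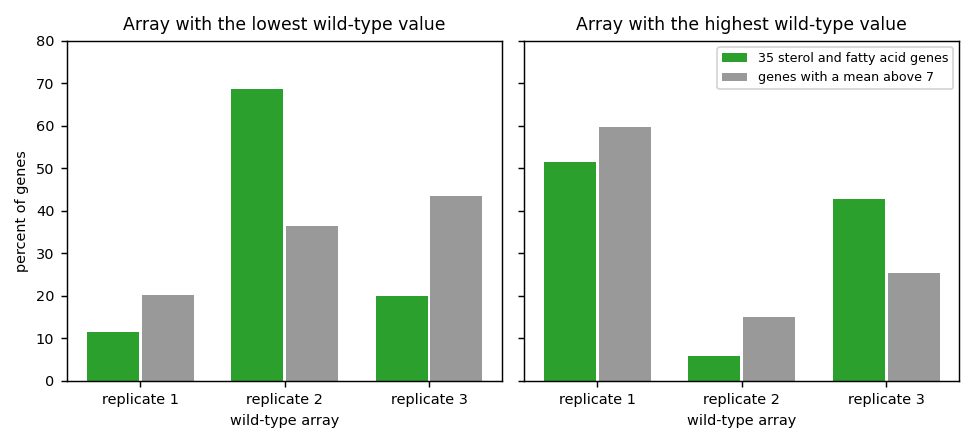
Bars give the percent of genes whose lowest (left) or highest (right) wild-type value was in replicate 1, 2 or 3, for the 35 genes in green and for genes with a mean above 7 in grey. Replicate 2 was lowest for 68.6% of the 35 genes and for 36.5% of the brighter genes.

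Stretches of some chromosomes were lower together in the knockout, so each member was set beside its surroundings: the 10 nearest measured genes on either side with a mean above 7, in RefSeq gene order and with members left out. For 33 of the 35 genes the median log2 fold change of the neighbours lay between -0.08 and 0.20. Both exceptions were genes that fell. Around Fdft1 on chromosome 14 the median of 20 neighbours was -0.65, 12 of them fell and 0 rose, and Fdft1 minus that median was -0.06. Around Ebp on the X chromosome, from Otud5 to Usp9x, the median was -0.56, 14 of 20 neighbours fell and 1 rose, and Ebp minus that median was -0.53. The other X-linked member, Nsdhl, had neighbours with a median of 0.11, of which 3 fell and 5 rose, and did not pass itself. Whether Fdft1 and Ebp fell with Med23 loss or with their stretch cannot be told apart. Leaving both out, 3 members fell and 5 rose.

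The remaining changed genes were picked by the test, and the medians of their neighbours lay between -0.08 and 0.11. Subtracting such small medians largely restates the fold change of each gene. Stard4 minus the median of its neighbours was 1.11, Fads2 minus its own 0.81, Tm7sf2 0.67, Fads1 0.46 and Insig1 0.42. Among the falls it was -0.55 for Abca1, -0.52 for Npc1 and -0.42 for Hsd17b7. Fads1 and Fads2 share the same 20 neighbours, whose median was -0.08.

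**Figure D5:**
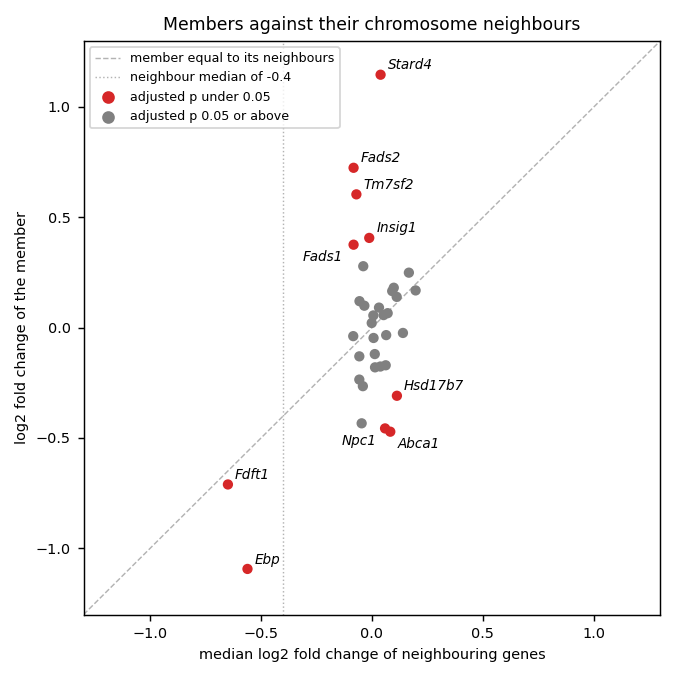
The log2 fold change of each member (vertical) against the median log2 fold change of its 10 nearest brighter genes on either side (horizontal); red marks an adjusted p under 0.05 and the dashed line equal values. Only Fdft1 and Ebp lie left of the dotted line at -0.4, Fdft1 close to the dashed line (-0.06 from it) and Ebp below it (-0.53).

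Other genes of the same pathways were listed by role. The test called 18.9% of all genes and 27.0% of those with a mean above 7, and the share of each list is set beside these without a test. Of 11 measured genes of the isoprenoid branches, 2 rose, the dolichol synthesis gene Nus1 (0.30) and the coenzyme Q gene Coq2 (0.31), and 0 fell, a share of 18.2%. Of 12 further regulators, most of them with a mean above 7, 3 rose and 2 fell, a share of 41.7%. The coactivator gene Ppargc1b rose by 0.69, Mylip, an LXR target that encodes a ubiquitin ligase for lipoprotein receptors, by 0.44, and Pgrmc1, which encodes a membrane haem-binding protein, by 0.40, while Erlin2, an endoplasmic reticulum protein gene, fell by 0.35. The Ppargc1b and Pgrmc1 calls held in all 14 fits; those of Nus1, Coq2, Mylip and Erlin2 were each lost on leaving out some single arrays (the highest adjusted p was 0.145, for Coq2 without knockout replicate 2).

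Of 16 genes of cholesterol handling, 2 rose and 2 fell (25%). The lipoprotein receptor gene Vldlr was 5.04, 4.92 and 4.84 in wild-type and 6.42, 6.61 and 6.69 in knockout arrays, a log2 fold change of 1.64; 3 of its 6 probe sets rose and the mean over them gave 0.70. Nceh1, a cholesteryl ester hydrolase gene, fell by 1.196 among chromosome 3 neighbours with a median of -0.79. The scavenger receptor genes Scarb1 and Scarb2 differed by 0.26 and -0.29, calls that were likewise lost without some single arrays. Of 29 further fatty acid genes, 3 rose and 8 fell, a share of 37.9%, against 18.9% of all genes and 27.0% of those with a mean above 7; no test was made of that difference. The largest were all falls: the elongase gene Elovl7 (-1.48, and -0.66 as the mean over its 6 probe sets), the acyl-CoA synthetase gene Acsl5 (-0.74), the phosphatidate phosphatase gene Lpin1 (-0.74) and the very-long-chain elongase gene Elovl1 (-0.60). Of these 4, only the Lpin1 call ended when 1 array was left out (adjusted p up to 0.07, without knockout replicate 1).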

How the data were processed

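Total RNA was labelled as biotinylated cRNA and hybridised to Affymetrix arrays, per the labels' protocols. The authors deposited 1 table of log2 values with a column per array; the base was inferred from their range. The submitters' processing notes list RMA and MAS5 without saying which made the values. Values were used as deposited; precision is limited by the small number of arrays.

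Of 45101 probe sets, 64 controls were left out. Symbols came from the platform annotation, updated through RefSeq (GRCm38.p6). All 45037 were fitted with limma 3.58.1 in R 4.3.3 (lmFit, eBayes, no covariates), with two-sided p-values adjusted by Benjamini-Hochberg across the table, threshold 0.05; intervals are limma's. The fitting script was tested on simulated data. Titles gave groups and replicate numbers. Members, lists and neighbourhoods were chosen with earlier results of these data known. Named were all members, the 4 largest called genes of each other pathway list and the 2 largest of each marker list. Alternatives were the replicate block, quantile normalization, median centring, a level filter, an intensity trend, array weights, means over probe sets, and leaving out each array.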

Additional observations from a re-analysis of the deposited data

How the results depend on the processing

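Stard4, Tm7sf2, Fads2, Ebp, Fdft1 and Npc1 passed the test in the same direction in all 14 fits. Over the fits that left out 1 array, 3 to 6 members rose and 3 to 6 fell, and the median log2 fold change lay between -0.0024 and 0.041. When only probe sets above the median were fitted, 7 members rose and 8 fell, and with an intensity trend 6 rose and 8 fell. In both fits Scap, Abcg1 and Scd1 joined the falls and Msmo1 the rises, and Mvk rose in the former. Array weights gave 7 rises and 5 falls, and means over probe sets 7 rises and 4 falls. Of the 5 falls at the main setting, 3 remained when members with a neighbourhood median at or below -0.4 were left out. Among members that did not pass, signs turned for Hmgcs1 (-0.0024 without wild-type replicate 2; 0.15 at most without 1 array), Idi1 (0.041 without wild-type replicate 3, -0.43 without replicate 1), Srebf2 (0.0057 with array weights, 0.11 as the mean over probe sets, 0.068 without wild-type replicate 1, -0.11 without replicate 3), Npc2 (0.17 as the mean over probe sets, 0.013 without wild-type replicate 1, -0.070 without replicate 3), and, as means over probe sets, Fdps (-0.037), Sc5d (0.068) and Elovl6 (-0.0054); the cause was not tested. With the replicate number as a block, 4 members rose and 4 fell, Hsd17b7 and Fads1 no longer passing. Deviations of same-numbered cultures had correlations of -0.13, -0.059 and 0.00083, and those of differently numbered ones lay between -0.11 and 0.12. With 3 arrays per group these values cannot show whether the numbers pair cultures, and the labels do not say. With 5 or 20 genes on either side the same count of 2 members had low neighbourhoods. Of the 3 Abca1 probe sets, 1 had a mean above the table median of 4.62. Signal over background was not analysed here.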
